A study of Mus musculus with 2 samples.

Results

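Wnt ligands, their Frizzled and Lrp receptors and the proteins that carry the signal to the nucleus were examined for H3K4me3, the trimethyl mark on lysine 4 of histone H3 that is found over the starts of active and poised genes. The members were the protein-coding RefSeq genes whose symbols are those of the Wnt and Fzd families, with Lrp5, Lrp6, Ctnnb1, Apc, Axin1, Axin2, Tcf7, Tcf7l1, Tcf7l2 and Lef1. They came to 39 of 21883 protein-coding genes: 19 ligands, 12 receptors (10 Frizzled genes and 2 Lrp genes) and 8 effectors. The cells were mouse neural progenitor cells of adult origin, kept in N2 medium that held EGF and bFGF, and given no other treatment. The series held 1 H3K4me3 chromatin immunoprecipitation library, labelled "con", and 1 input library, of 18156769 and 17831241 tags after filtering. Strain, age and sex of the animals, the antibody and the number of cultures or animals behind a library are not given in the sources used here. With 1 library of each kind there was no error between cultures and no test between conditions, and genes were not treated as replicates.

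Wnt proteins are lipid-modified secreted signals. In the branch that works through beta-catenin, a ligand binds a Frizzled receptor and the coreceptors Lrp5 or Lrp6, which stops a complex of Axin and Apc from marking beta-catenin for destruction. Beta-catenin then enters the nucleus and works with the DNA-binding factors of the Tcf and Lef family. Other branches act through Frizzled and other receptors on cell polarity and movement. In the adult brain, Wnt signals are known for roles in the division of neural stem cells and in the birth of neurons.

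The receptors and effectors all had a called H3K4me3 peak, whereas 4 ligands had none and most of the marked ligands had weak ones. These differences between roles are described and were not tested. A peak lay over the gene or within 1 kb of it at 15 of 19 ligands (78.9%), 12 of 12 receptors and 8 of 8 effectors, against 61.5% of all protein-coding genes under the same rule. The members held 52 of the 19265 peaks in the list, and no peak lay over 2 members. The strength of a peak is given as its fold enrichment over the input and its tag count, both as the authors' peak caller reported them. The highest fold enrichment over a marked gene had a median of 18.1 for ligands (8.28 to 50.6), 40.1 for receptors (18.1 to 44.8) and 45.9 for effectors (36.2 to 58.6). The median over all marked protein-coding genes was 39.1. The ranges of the roles overlapped, since Wnt5a, Wnt5b and Wnt7b stood among the receptors and effectors. Fzd6 (18.1) and Fzd9 (22.4) stood among the other ligands. A fold enrichment of 30 or more was reached by 3 ligands, 10 receptors and 8 effectors, against 45.4% of all protein-coding genes.

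**Figure D1:**
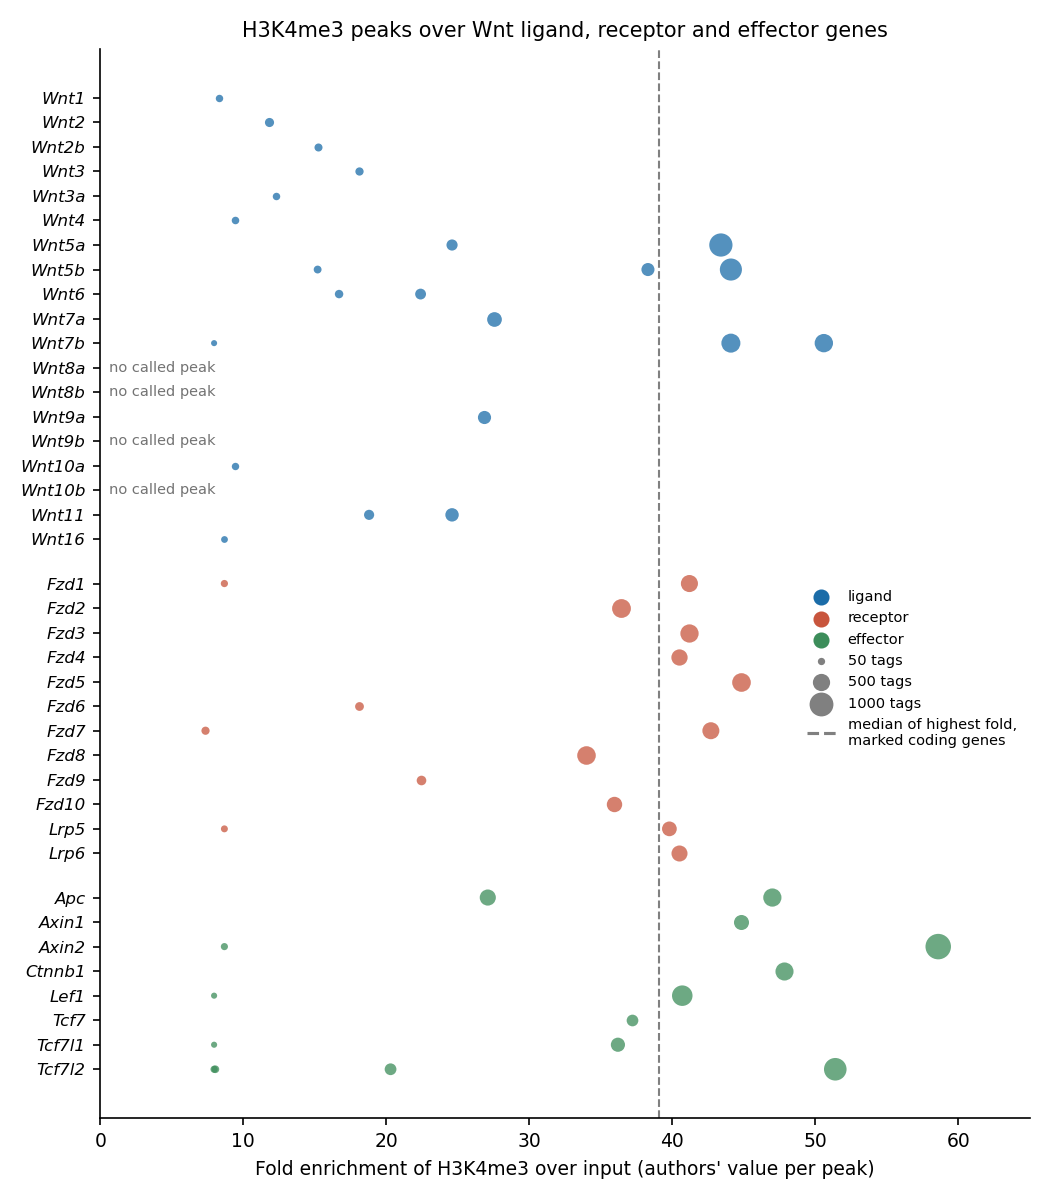
Each point is 1 H3K4me3 peak over a member gene or within 1 kb of it, with the fold enrichment over the input on the horizontal axis, the area of the point rising with the tag count, and colours for the 3 roles. The dashed line is the median of the highest fold per gene over all marked protein-coding genes (39.1). Most ligands lie to the left of it at 8.28 to 27.5, whereas Wnt5a, Wnt5b, Wnt7b and most receptors and effectors reach it or lie near it.

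Counted per length, the order of the roles was the same. The peak with the most tags over each marked gene held a median of 80.4 tags per kb in ligands (38.2 to 218), 154 in receptors (73.0 to 199) and 182 in effectors (124 to 215), against 151 over all marked protein-coding genes. In a population of cells, fewer cells with the mark and less of the mark per cell cannot be told apart. The library's labelled cell type was checked against marker genes. All 10 progenitor markers had a peak (highest fold 20.2 to 52.1), among them Sox2, Nes and Olig2. Of 5 markers each, 2 neuronal (16.6 and 22.6), 1 microglial (10.8), 3 endothelial (8.68 to 42.7) and 1 fibroblast or mural gene (37.6) had a peak, against 61.5% of all protein-coding genes. The marked ones were Snap25, Syt1, P2ry12, Pecam1 (8.68), Kdr (13.3), Flt1 (42.7, with 462 tags) and Col1a1. The strongest peak at P2ry12 (49 tags) also lay at the coding gene Med12l, so its tags cannot be given to P2ry12 alone. Dcx, Rbfox3, Aif1, Cx3cr1, Cdh5, Cldn5 and Pdgfrb were among those without a peak. The part of other cells in the weak ligand peaks was not tested.

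Promoter sequences of 5 members are shown. The 250 bases before an annotated start are given, from RefSeq (GRCm38.p6, the assembly named mm10), 5′ to 3′ on the strand of the gene, with each CpG in capitals, because CpG-rich promoters are the usual place of H3K4me3 in mammals. Wnt7a (chr6:91411354-91411603, minus strand), Fzd5 (chr1:64737751-64738000, minus strand) and Axin2 (chr11:108920099-108920348, plus strand) were the ligand, receptor and effector starts whose own peak held the most tags among the starts with a sequence. Wnt10b (chr15:98778151-98778400, minus strand) was the first ligand in alphabetical order without a called peak. The start inside Tcf7l2 (chr19:55895071-55895320, plus strand) was chosen after its values were seen, as a start with few CpGs under a peak.
Wnt7a: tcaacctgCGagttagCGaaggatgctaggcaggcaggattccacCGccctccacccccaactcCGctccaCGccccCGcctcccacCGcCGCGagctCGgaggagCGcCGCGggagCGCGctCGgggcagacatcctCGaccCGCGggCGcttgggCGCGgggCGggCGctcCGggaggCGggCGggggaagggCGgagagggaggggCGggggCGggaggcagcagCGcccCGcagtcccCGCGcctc
Fzd5: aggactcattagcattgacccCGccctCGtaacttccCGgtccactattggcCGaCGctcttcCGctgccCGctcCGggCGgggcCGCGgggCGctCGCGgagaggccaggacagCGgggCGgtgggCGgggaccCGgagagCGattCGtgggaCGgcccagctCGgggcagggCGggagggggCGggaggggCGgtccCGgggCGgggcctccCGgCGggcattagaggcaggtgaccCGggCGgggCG
Axin2: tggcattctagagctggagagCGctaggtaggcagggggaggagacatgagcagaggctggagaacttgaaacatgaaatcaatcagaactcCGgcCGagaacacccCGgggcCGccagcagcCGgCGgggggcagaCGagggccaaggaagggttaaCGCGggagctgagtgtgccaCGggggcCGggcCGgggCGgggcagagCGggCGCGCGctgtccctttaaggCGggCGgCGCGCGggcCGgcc
Wnt10b: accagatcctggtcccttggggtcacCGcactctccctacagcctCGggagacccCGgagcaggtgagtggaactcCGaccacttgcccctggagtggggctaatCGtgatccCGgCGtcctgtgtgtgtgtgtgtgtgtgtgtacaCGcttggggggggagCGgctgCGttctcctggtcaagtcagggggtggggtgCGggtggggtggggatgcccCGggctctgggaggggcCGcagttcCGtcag
Tcf7l2: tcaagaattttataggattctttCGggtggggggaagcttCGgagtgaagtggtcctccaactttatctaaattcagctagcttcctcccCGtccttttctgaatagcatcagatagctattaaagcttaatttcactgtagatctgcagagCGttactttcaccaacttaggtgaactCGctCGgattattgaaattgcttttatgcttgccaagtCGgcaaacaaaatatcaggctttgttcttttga
The Wnt7a, Fzd5 and Axin2 stretches held 34, 32 and 24 CpGs, and their peaks held 351, 593 and 1150 tags. The Wnt10b stretch held 14 CpGs and lay in no called peak. The Tcf7l2 stretch held 7 CpGs, and the peak over it held 207 tags. Among these stretches the tags did not follow the number of CpGs. The stretches were picked by their tags or peaks, so they cannot show how tags and CpGs relate.

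Among the ligands, the strongest marks lay over Wnt7b, Wnt5a and Wnt5b. Wnt7b encodes a ligand that brain cells send to blood vessels, with Wnt7a. It carried a peak of 574 tags (95% Poisson interval 528 to 623, counting error only) with a fold enrichment of 50.6, the highest of any ligand, whose summit lay 504 bp from an end of the gene. A second peak of 619 tags and 44.1-fold enrichment had its summit 4455 bp from that end, and the weakest held 20 tags. Joined across gaps of up to 1 kb, these peaks covered 8.23 kb, the widest region over any member. A non-coding gene, AU022754, lay under the first of them, so the tags there cannot be given to Wnt7b alone.

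Wnt5a, the best known ligand of the branches that do not use beta-catenin, had 1 dominant peak at a gene end. It held 947 tags (888 to 1009) over 4348 bp with a fold enrichment of 43.4, and its 218 tags per kb were the most of the strongest peaks of all members. A second, internal peak had 182 tags and 24.6-fold enrichment. Wnt5b, a close relative, had 3 peaks over a gene of 112 kb. The one with the most tags (852, fold enrichment 44.1) lay inside the gene over Fbxl14, a coding gene within Wnt5b, 12183 bp before the nearest listed Wnt5b start. The peak over the first Wnt5b start had 267 tags and 38.3-fold enrichment, and it also lay over an end of the predicted coding gene Gm52875. With only peaks over 1 coding gene, the highest fold at Wnt5b dropped from 44.1 to 15.2, that of a peak of 66 tags inside the gene.

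A middle group of ligands carried peaks of moderate strength at their starts. Wnt7a, which acts on neural progenitors and on brain vessels, had 351 tags (315 to 390) and a fold enrichment of 27.5, with the long non-coding gene Gm30437 under the same peak. Wnt9a, a ligand of joint formation, had 271 tags and 26.8. Wnt6 had 169 tags and 22.4 at its listed start and a second peak of 84 tags with its summit 858 bp from the far end of the gene. Wnt11, a ligand of tissue movements in the embryo, had 1 peak over each of its 2 listed starts. The first had 284 tags and was enriched 24.6-fold, and the second had 142 tags and 18.8 and a summit 61 bp after the start. These 4 genes stood between the 15.2 and 21.6 percentiles of marked protein-coding genes by highest fold.

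The remaining marked ligands had 1 weak peak each. Wnt2, a ligand of lung and heart development, had 106 tags (86.8 to 128) and a fold enrichment of 11.8, with the summit 7 bp before its start. Wnt2b, its closest relative, had 71 tags and 15.2, and Wnt4, a ligand of kidney and gonad development, had 57 tags and 9.40, both over the start. Those 3 were weak peaks in the usual place.

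In 4 other weakly marked ligands the peak did not cover the listed start, and for Wnt10a no start was listed. Wnt1, the signal of the midbrain and hindbrain boundary, had 54 tags (40.6 to 70.5) and a fold enrichment of 8.28, with the summit 1509 bp after the start and the start itself outside the peak. Wnt16 had 37 tags and 8.68, with the summit 1129 bp after its start. Wnt3a, the cortical hem signal needed for the hippocampus, had 55 tags and 12.3, with the summit 26442 bp after its start. Wnt3, used in the adult hippocampus to drive the birth of neurons, had 78 tags and 18.1, with the summit 35968 bp after its start. Wnt10a had 53 tags and 9.40, with the summit 739 bp from an end of the gene. Neither Wnt3 nor Wnt3a had a peak within 1 kb of the listed start.

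Wnt8a, Wnt8b, Wnt9b and Wnt10b had no called peak over the gene or within 1 kb. Wnt8b is a ligand of the embryonic forebrain, Wnt8a of the early embryo and Wnt9b of the kidney. The fewest tags in any listed peak were 13, but peaks were called by a p cutoff and not by a tag count. A mark at these genes that did not pass the cutoff is not listed, so no called peak does not mean no mark. The nearest peak to Wnt8a was 3.55 kb away (20 tags, 9.87-fold). The nearest to Wnt10b was a strong peak at Arf3, 6.68 kb away (495 tags, 55.0-fold). Wnt9b and Wnt8b were 28.6 kb and 30.9 kb from the nearest peak, at Gosr2 (380 tags) and Sec31b (26 tags).

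Wnt genes often lie in pairs, and 4 neighbouring pairs of ligands could be compared within the library. Wnt9a, with 271 tags at its start, lies 16.1 kb from Wnt3a, with no peak at its start. Wnt6, with 169 tags at its start, lies 6.70 kb from Wnt10a, with 53 tags near an end. Wnt1, with 54 tags, lies 11.7 kb from Wnt10b, with none. The gene bodies of Wnt3 and Wnt9b overlap, and neither had a peak at its listed start. No other coding gene lies between the members of a pair. For Wnt9a and Wnt3a the exact Poisson intervals of the tag counts were 240 to 305 and 41.4 to 71.6. For Wnt6 and Wnt10a they were 144 to 196 and 39.7 to 69.3. The peaks compared were unlike in place and in length, at 2367 and 937 bp for Wnt9a and Wnt3a and 1974 and 1135 bp for Wnt6 and Wnt10a. No share over other neighbouring gene pairs is given.

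All 10 Frizzled genes, which encode the membrane receptors of Wnt proteins, had a peak. In each the peak with the most tags had its summit within 1 kb of an end of the gene. In short genes such as Fzd9 (2.11 kb) and Fzd10 (2.99 kb) most positions lie that near an end. No share over all protein-coding genes is given for this place of the summit. The strongest fold was at Fzd5, a receptor of eye development, with 593 tags (546 to 643) and 44.8. Fzd7 (485 tags, 42.7) and Fzd1 (490 tags, 41.2) followed, and their close relative Fzd2 had 604 tags, the most of any receptor, with a fold enrichment of 36.4. Fzd3, a receptor of axon guidance and planar polarity, had 568 tags and 41.2. Fzd4, the receptor of Norrin in retinal vessels, had 440 tags and 40.5, at a peak that also lay at Tmem135. Fzd8 and Fzd10 had 588 and 389 tags, with fold enrichments of 34.0 and 35.9. These 8 genes were at the 34.9 to 69.5 percentiles of marked protein-coding genes by highest fold, near the middle of the library.

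Fzd9 and Fzd6 stood apart from the other Frizzled genes. Fzd9, known from the hippocampus, had 123 tags (102 to 147) and a fold enrichment of 22.4. Fzd6, the partner of Fzd3 in planar polarity, had 95 tags (76.9 to 116) and 18.1, at a peak that also lay over the non-coding gene Gm26704. Both counts were below the interval of each of the other 8, of which the lowest was 351 to 430 tags at Fzd10. Fzd1 and Fzd7 each had a second, weak peak of 48 and 76 tags. Most Frizzled genes are short, with a median of 4.59 kb, so a single peak often covered much of the gene: at Fzd7 the joined region of 5.17 kb was longer than the gene of 4.81 kb. The coreceptor genes Lrp5 and Lrp6 are 102 kb and 120 kb long and each had their strongest peak at 1 end, with 352 tags (316 to 391) and 39.8 at Lrp5 and 426 tags (387 to 468) and 40.5 at Lrp6. Lrp5 had a further peak of 41 tags.

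The effectors had the highest median of the 3 roles. Axin2, a scaffold of the destruction complex and a classical target gene of beta-catenin, had the strongest peak of all 39 members. That peak held 1150 tags (1084 to 1218) over 5887 bp with a fold enrichment of 58.6, above 97.9% of marked protein-coding genes. It reached 564 bp before the listed start and 5322 bp after it. A weak peak of 46 tags lay 2272 bp before that start. Axin1, the related scaffold that is not known as a feedback gene, had 369 tags (332 to 409) and 44.8, with its summit 7654 bp from the nearest end of the gene, and no peak within 1 kb of either end. The non-coding gene Gm46600 lay under the Axin1 peak.

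Ctnnb1, the gene of beta-catenin, had 1 peak of 555 tags (510 to 603) and 47.8-fold enrichment over both of its listed starts. Apc, the other scaffold of the destruction complex, had 2 sizeable peaks. One held 564 tags (47.0-fold) at a gene end, together with the non-coding gene Gm10548, and the other held 431 tags (27.1-fold) with its summit 28325 bp inside the gene.

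The 4 genes of the Tcf and Lef factors, which bring beta-catenin to DNA, were all marked at a start. Tcf7l2 had 892 tags (834 to 953) and 51.4 at its first start, above 89.1% of marked genes. Lef1 had 728 tags (676 to 783) and 40.7 at a peak that covered 3 of its 4 listed starts. Tcf7l1, which acts mostly as a repressor, had 322 tags (288 to 359) and 36.2, and Tcf7 had 204 tags (177 to 234) and 37.2. In the order given, the 4 peaks were 4719, 3512, 2106 and 1650 bp long and held 189, 207, 153 and 124 tags per kb.

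Tcf7l2 also showed internal marks. Of its 4 peaks, 1 of 207 tags (180 to 237) and 20.3-fold enrichment had its summit 58 bp after the second listed start, which lies in the body of the gene. The remaining pair held 61 and 48 tags and lay 57108 and 43446 bp before that start. In Lef1 the fourth listed start had no peak within 1 kb, and a peak of 21 tags lay 16492 bp before it. At least 2 peaks were found over 5 of 8 effectors, 3 of 12 receptors and 5 of 19 ligands, against 14.4% of all protein-coding genes. Effector genes were the longest, with a median length of 83.2 kb against 22.9 kb for ligands, 5.28 kb for receptors and 17.2 kb for all protein-coding genes.

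Annotated start sites with a strand and a promoter sequence were listed for 27 of the 39 members, with 36 starts. Those without an entry were Wnt5a, Wnt7b, Wnt8a, Wnt10a, Fzd2, Fzd3, Fzd6, Fzd8, Lrp5, Lrp6, Apc and Axin1. A peak covered 9 of 18 ligand starts, 6 of 6 receptor starts and 11 of 12 effector starts, against 55.3% of the 21262 listed starts of protein-coding genes. Starts of 1 gene can lie under the same peak, as in Lef1, Ctnnb1 and Tcf7. Lef1 starts 1 and 2 and the 2 Ctnnb1 starts also share part of their promoter sequence. The covering peak reached a median of 766 bp before and 1193 bp after the ligand starts, 1243 and 1814 bp at receptor starts and 755 and 2756 bp at effector starts. Over all listed starts the medians were 829 and 1302 bp. Fzd5 reached furthest before a first start (1775 bp), and Axin2 and Tcf7l2 furthest after it (5322 and 3962 bp).

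**Figure D2:**
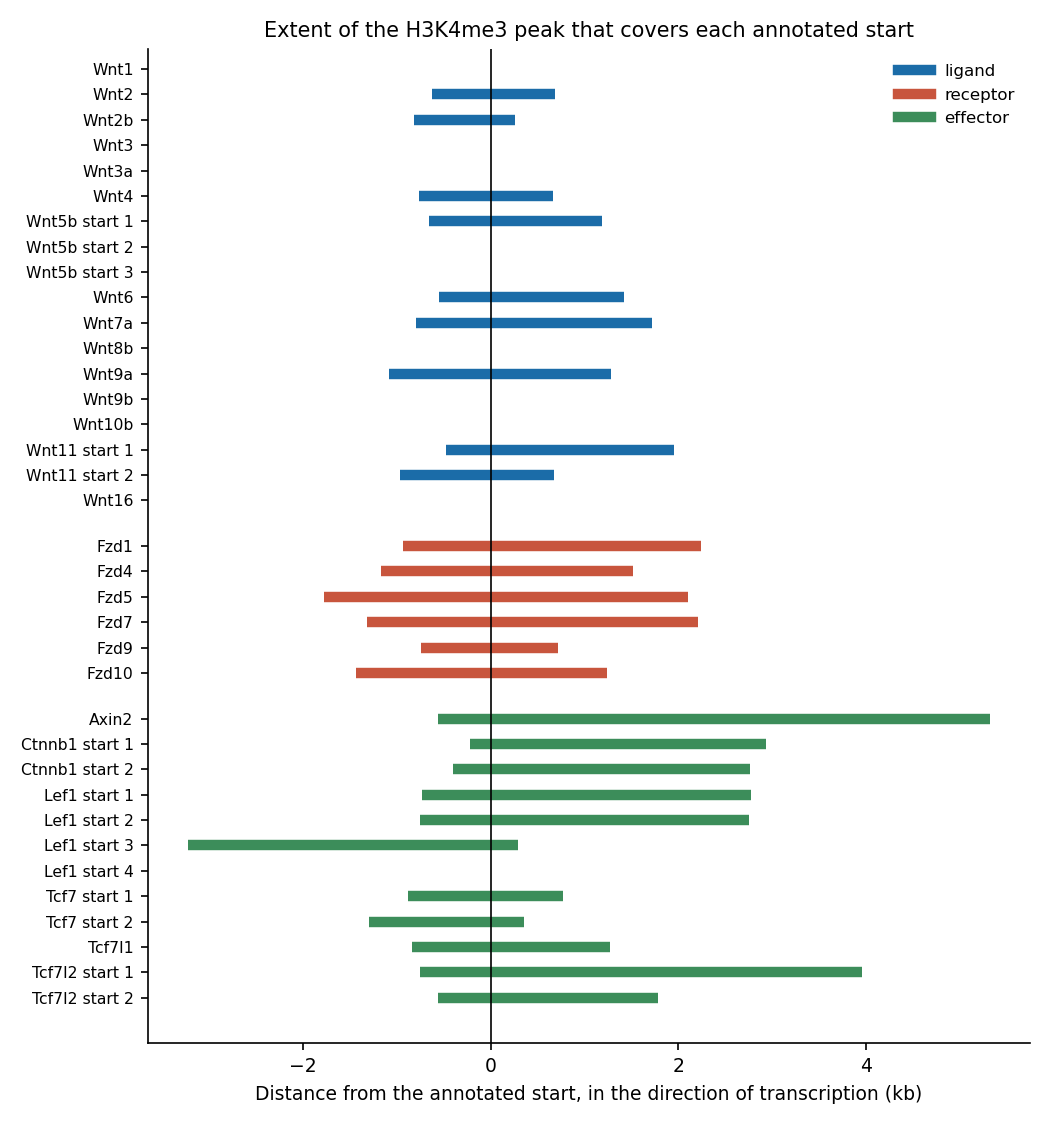
Each row is 1 annotated start of a member gene, and each bar is the H3K4me3 peak that covers it, drawn from its end before the start to its end after the start in kb, in the direction of transcription. Rows without a bar are starts in no called peak, which are 9 of 18 ligand starts, no receptor start and 1 effector start (the fourth of Lef1). Axin2 has the longest bar, reaching 5322 bp after the start.

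The CpG content of the promoters was set beside the marking. In the window from 250 bases before to 50 after the start, the CpG count was compared with that expected from the base composition. A ratio of 0.6 or more was found at 13 of 18 ligand starts, 6 of 6 receptor starts, 7 of 12 effector starts and 47.7% of all listed starts. Among all such CpG-rich starts 91.4% lay in a peak, and among the CpG-poor ones 22.4% did. Of the CpG-rich member starts, a peak covered 9 of 13 in ligands, 6 of 6 in receptors and 7 of 7 in effectors. Of the 5 CpG-poor ligand starts, which were those of Wnt8b, Wnt10b and Wnt16 and the last 2 of Wnt5b, a peak covered 0. A ratio of 0.6 or more was found at 84.6% of the 26 member starts inside a peak, near the 78.8% of all listed starts inside a peak. Of the 10 member starts outside a peak 40.0% reached this ratio, and no share over all starts outside a peak is given. The uncovered CpG-rich starts were those of Wnt1 (ratio 0.699), Wnt3 (0.744), Wnt3a (0.863) and Wnt9b (0.753). Wnt3a had 45 CpGs in the window, more than Wnt7a with 42.

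Where a CpG-rich ligand start was covered, the fold enrichment had a median of 22.4 (9.40 to 38.3), and 1 of 9 reached 30, that of Wnt5b. Wnt5a and Wnt7b, with highest folds of 43.4 and 50.6, had no listed start and are not among these 9. Wnt4 had a ratio of 0.977 with 51 CpGs and a fold of 9.40. Over all covered CpG-rich starts the median was 41.2 and 82.1% reached 30. The receptor and effector starts of this kind had medians of 40.9 and 47.8. In the other direction, 4 effector starts with a ratio under 0.6 lay in a peak: Lef1 starts 1 and 3 (0.530 and 0.400), Tcf7 start 2 (0.548) and Tcf7l2 start 2 (0.534). The first 3 of these lay under a peak that also covered a CpG-rich start of the same gene.

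**Figure D3:**
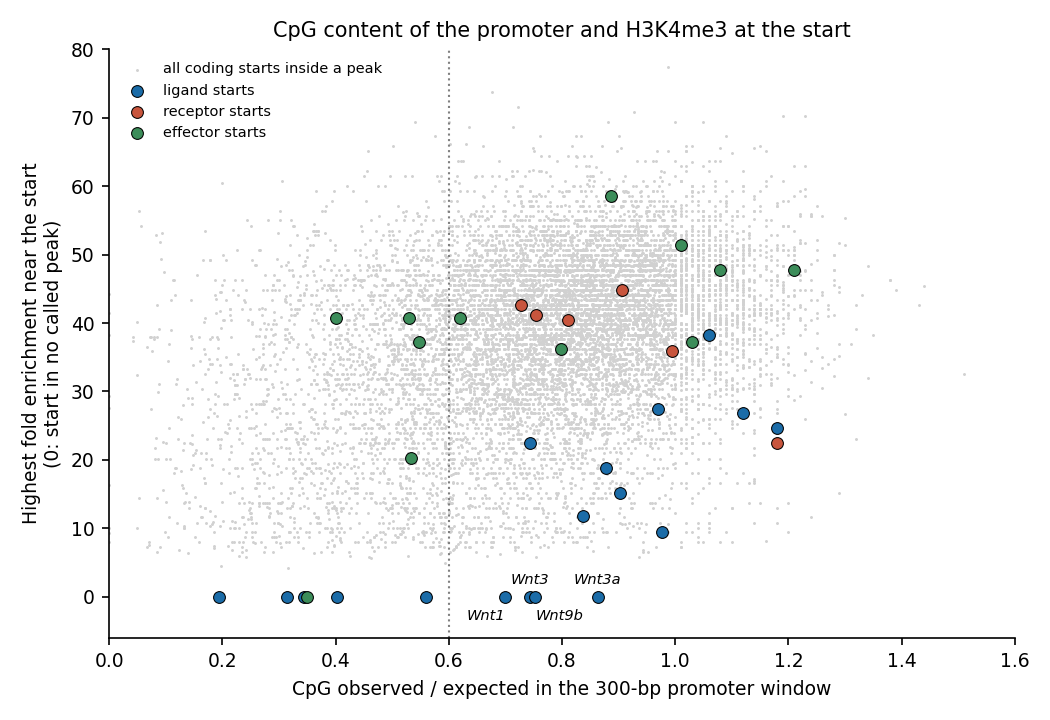
The horizontal axis is the observed over expected CpG count in the 300-bp promoter window, the vertical axis is the highest fold enrichment within 1 kb of the start, and starts in no called peak are placed at 0. Grey points are all listed coding starts inside a peak, coloured points are the member starts, and the dotted line is at a ratio of 0.6. Members without a listed start, among them Wnt5a and Wnt7b, are not shown. Ligand starts to the right of the line lie at 0 (Wnt1, Wnt3, Wnt3a, Wnt9b) or between 9.40 and 38.3, where the covered starts of all coding genes right of the line have a median of 41.2.

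Short motifs were counted on both strands of the same windows, as a description of letters and not of binding. The core of the Tcf and Lef site, CTTTGAT, was present at 2 of 36 member starts, the last of Wnt5b and the first of Wnt11, against 3.22% of all listed starts. The windows of the 6 effectors with an entry did not hold these letters. The E-box CANNTG, which reads the same on both strands, was present at 24 of 36 member starts, against 69.0%. The RBPJ core TGGGAA was present at 7 of 36, against 24.5%. Lef1 starts 1, 2 and 3 were among these 7, and the windows of its starts 1 and 2 overlap. The TATA box TATAAA was present at 6 of 36, against 12.6%, with 4 of the 6 at effector starts. None of the 4 patterns contains another.

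Broad marking was found at a few members. A joined region of at least 5 kb lay over 4 of the 35 marked members (11.4%), against 4.15% of marked protein-coding genes. They were Wnt7b (8.23 kb), Axin2 (5.89 kb), Wnt5b (5.46 kb, at Fbxl14) and Fzd7 (5.17 kb). Fzd1 (4.91 kb), Wnt11 (4.88 kb), Tcf7l2 (4.72 kb), Fzd8 (4.41 kb) and Wnt5a (4.35 kb) lay just under this bound. The count was 2 with peaks not joined and 8 with peaks joined across gaps of up to 3 kb. No share over all marked genes is given for these joinings, so these counts cannot be set against a background.

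The other genes of the pathway were split in a like way, with a lower median fold at secreted inhibitors than at cytoplasmic transducers and nuclear cofactors. Of 57 such genes 50 had a peak (87.7%), against 61.5% of protein-coding genes. Secreted inhibitors were marked at 8 of 12, with a median highest fold of 19.5. The most tags were at Wif1 (425 tags, 38.5-fold), which binds Wnt proteins, and Frzb (255 tags, 32.5-fold), a secreted Frizzled-like protein. Dkk1, an Lrp antagonist, and Dkk3, of the same family, had no peak. R-spondins, which raise Wnt responses, and their Lgr receptors were marked at 5 of 7 with a median of 23.9, with the most tags at the receptors Lgr5 (477 tags, 34.2-fold) and Lgr4 (294 tags, 32.8-fold) and none at Rspo2 and Rspo4.

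The listed genes of the cell interior were all marked. The 9 cytoplasmic transducers had a median of 50.6, led by Gsk3b (1154 tags, 61.5-fold) and Csnk1a1 (926 tags, 53.5-fold), the kinases that phosphorylate beta-catenin for its destruction. The 9 nuclear cofactors had a median of 43.9, with the most tags at the corepressor genes Tle3 (1075 tags, 46.0-fold) and Tle1 (852 tags, 45.5-fold).

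Secretion, membrane and polarity genes were marked with 1 exception. The 7 planar cell polarity genes had a median of 44.1, with the most tags at Vangl1 (383) and Prickle1 (375). Porcn and Wls, which attach the lipid to Wnt proteins and carry them to the cell surface, had 174 tags (22.4-fold, at a peak shared with Ebp on the X chromosome) and 328 tags (39.8-fold). The ubiquitin ligase genes Znrf3 and Rnf43, whose products remove Frizzled receptors from the membrane, had 452 and 334 tags (29.1-fold and 49.2-fold), the latter at a peak shared with Supt4a. Among receptors for the branches without beta-catenin, Ptk7 had 404 tags (46.7-fold, shared with Klc4) and Ryk 397 tags (42.7-fold). Ror1 had 365 tags (43.4-fold), whereas Ror2, a receptor of Wnt5a, had no peak. All 5 feedback and target genes had a peak, with the most tags at Ccnd1 (2145) and Myc (1527), genes that many other signals also control. Their median highest fold was 33.3, and the lowest was at Sp5 (55 tags, 12.3-fold).

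**Figure D4:**
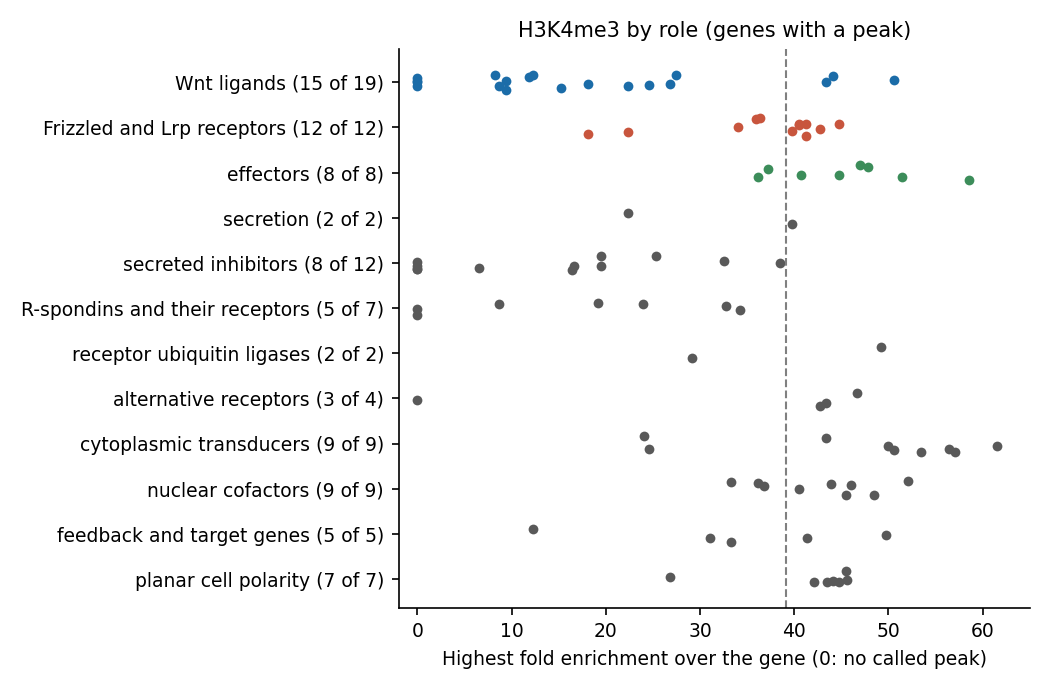
Each point is 1 gene, placed at the highest fold enrichment among its peaks or at 0 where no peak was called, with rows for the 3 member roles in colour and for the other pathway lists in grey, and the number of genes with a peak beside each name. Points are spread within a row only for visibility, and the dashed line is the median over marked protein-coding genes (39.1). Ligands, secreted inhibitors, R-spondins with their receptors and alternative receptors have points at 0. Effectors and nuclear cofactors all lie above 30, whereas cytoplasmic transducers reach down to 24.1 and feedback and target genes to 12.3.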

How the data were processed

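The genome build is mm10, per the submitters' processing notes, and no aligner is named in the sources used. Per the file header, calling was done on 1 H3K4me3 library against the input with MACS 1.4.2 (p cutoff 1e-05, at most 1 tag per position), while the submitters' processing notes name MACS2 2.1.0. The deposited tag count per peak is not normalized. The deposited fold enrichment is a ratio to the input, the deposited score is the p-value as a negative log10, multiplied by 10, and the deposited false discovery rate is in percent. The score stopped at 1 ceiling for 17 of the 52 member peaks, so peaks were not ranked by it. Peak length and summit are in base pairs.

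Peaks were joined to RefSeq genes of GRCm38.p6 on chromosomes 1 to 19, X and Y with Python 3.11.15, by an overlap of at least 1 bp with the gene plus 1 kb either side, and the overlaps were checked against bedtools 2.31.1 and tested on simulated data. Positions are 1-based. Start sites and promoters came from RefSeq. Intervals are exact 95% Poisson intervals of tag counts and cover counting error only, since 1 library gives no error between cultures. At most 1 tag per position was kept, and without a molecular identifier separate molecules at 1 position cannot be told from amplified copies. No p-value was computed. Markers of 1 further cell type were fixed and are not reported here. The members and lists were chosen with earlier results of these data known. All members are named. From each pathway list the 2 marked genes with the most tags and the first 2 without a peak are named, and Ror1 and Sp5 are named besides.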

Additional observations from a re-analysis of the deposited data

How the results depend on the processing

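Counts of marked ligands, receptors, effectors and pathway genes stayed within 1.5 times their values under 7 other settings of window, overlap, threshold and sharing. Ligands ranged from 11 to 16 of 19 and all protein-coding genes from 46.4% to 64.1%, with their lowest values under different settings. The 11 of 19 ligands were those with a fold enrichment of at least 10, near the 59.2% of all protein-coding genes under that setting. Wnt1, Wnt4, Wnt10a and Wnt16 had no peak with a fold enrichment of at least 10, Wnt3, Wnt3a and Axin1 had none within 1 kb of a listed start or, for the 12 members without one such as Axin1, of either gene end, Fzd4 had none over 1 coding gene only, and Wnt8a gained one with 5 kb either side. With a fold enrichment of at least 30, added after seeing the data, the ligand count was 3 of 19, against 45.4% of all protein-coding genes. The ligand median of 18.1 was 16.6 with 5 kb either side, 22.4 within 1 kb of a start or end so defined and 15.2 with only peaks of 1 coding gene. Under the last setting the receptor median of 40.1 was 39.8, and within 1 kb of such a start or end the effector median of 45.9 was 47.0. The set of marked genes differs between these settings. Members with a region of at least 5 kb numbered 2 with peaks not joined and 8 with a gap of 3 kb, against 4, with no background share given for the first 2 counts.

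No paired analysis was possible because the labels give 1 library of each kind. Keeping 1 tag per position limits the counts of the strongest peaks, and sites under the p cutoff are not listed.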

Other observations

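Other proteins that shape Wnt signals, listed after the values above were seen, were marked at 17 of 19 genes, with a median highest fold of 39.3, against 61.5% of all protein-coding genes and a median of 39.1 over the marked ones. The partners of Wnt7 and Norrin signalling all had a peak. Reck and Adgra2, which let vessel cells respond to Wnt7 ligands, had 396 tags (43.4-fold) and 213 tags (39.8-fold). Tspan12, a partner of Fzd4, had 517 tags (37.0-fold), and Ndp, the gene of the ligand Norrin, had 168 tags (15.2-fold). The genes for turnover of beta-catenin were marked at 5 of 5. The tankyrase genes Tnks and Tnks2, whose products promote the destruction of Axin, had 495 and 574 tags (41.2-fold and 42.7-fold), while Apc2, the second Apc gene, had 47 tags (9.40-fold).

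Of the genes for glypicans and sulfatases, which hold and release Wnt proteins at the cell surface, Gpc3 and Gpc4 had no peak, Sulf2 had 687 tags (37.0-fold) and Gpc6 had 413 tags (23.9-fold). The 4 genes for membrane inhibitors were marked, at Kremen1 with 442 tags (46.9-fold) and at Apcdd1 with 128 tags (18.8-fold). Peaks at Kremen2 and Tmem88 also lay at other coding genes.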
